A study of Drosophila melanogaster with 2 samples.

Results

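The genes described here encode the subunits of the nuclear RNA polymerases I, II and III, with a few of their initiation factors. They were taken by name from the Ensembl annotation of Drosophila melanogaster: every protein-coding gene called Polr1, Polr2 or Polr3 followed by a capital letter, plus Brf, Tif-IA and Taf1B, which the annotation spells TAF1B. This gave 33 of the 13945 protein-coding genes on the 6 main chromosome arms. By role they comprised 5 subunits of polymerase I alone, 8 genes of polymerase II alone, of which Polr2M encodes an associated protein, and 10 subunits of polymerase III alone. A further 2 subunits are shared by polymerases I and III, 5 are shared by all 3 enzymes, and 3 genes encode initiation factors.

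Binding of Max was mapped by chromatin immunoprecipitation and sequencing in whole embryos of mixed sex, aged 0 to 24 h, from a transgenic fly line that carries Max with GFP at its C terminus. GFP was the target of the antibody. The series has 1 group, of 2 biological replicates numbered 2 and 3, and no second condition, so the comparisons below are between genes. The embryos were whole, so a site bound in few cells cannot be told apart from one bound weakly in many, and nothing in the labels says how the level of the tagged protein compares with that of the native one.

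Polymerase I makes the large ribosomal RNA precursor in the nucleolus, polymerase II makes messenger RNAs, and polymerase III makes transfer RNAs and the 5S ribosomal RNA. The enzymes share several small subunits and an assembly platform, while the catalytic core, the stalk and other peripheral parts are made from related but separate genes. Max is the DNA-binding partner of Myc, which in Drosophila is known to raise ribosomal RNA synthesis and polymerase III transcription, and the pair binds the E-box CACGTG.

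A gene is called bound below if a summit of the list that passed the irreproducible discovery rate (IDR) threshold lay within 500 bp of any of its annotated starts. Of the 33 genes 21 were bound (63.6%), where 25.9% of all protein-coding genes were. Every subunit of polymerase I alone was bound, 5 of 5, against 5 of 8 for polymerase II and 4 of 10 for polymerase III. Both subunits shared by polymerases I and III, 3 of the 5 shared by all 3 enzymes, and 2 of the 3 initiation factors were also bound. With shared subunits counted for each enzyme that holds them, the numbers were 10 of 12, 8 of 13 and 9 of 17 for polymerases I, II and III. These are counts over few genes, and the difference between the enzymes was not tested. The order of polymerases II and III was not stable. The first 4712 peaks of replicate 2 alone gave 3 of 8 and 5 of 10, and those of replicate 3 alone 4 of 8 and 5 of 10.

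Most subunits of polymerase I alone had an E-box just inside the gene. CACGTG lay 21 to 32 bp downstream of the annotated start, in the 5′ UTR, in 4 of the 5 subunits of polymerase I alone (Polr1A, Polr1B, Polr1E and Polr1H) and in Polr1C, a shared subunit of polymerases I and III. Each of these genes has 1 such E-box within 500 bp of its start. Their sites are shown as 30 bases read 5′ to 3′ towards the gene, from the Release 6 genome on the dm6 assembly, with the E-box in capitals; the site of Polr1A is not printed.

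Polr1B (chr2L:404302-404331, plus strand): gattccaaacaaCACGTGcgaaggaaggca
Polr1C (chr2L:4969024-4969053, plus strand): tattgattccaaCACGTGcggttcaatttt
Polr1E (chr3R:18301690-18301719, minus strand): ttttgttttccaCACGTGcaacatttgaat
Polr1H (chr3R:21777799-21777828, minus strand): aatccgaaatagCACGTGcggtttttgtat

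The E-box was followed by C in all 4 of the sites printed above, which was noticed after they were seen. Over all genes it was followed by C in 78 of the 193 sites downstream of the start whose next base lay within 50 bp of it (40.4%). Its first base lay 29 bp downstream of the start in Polr1A and in Polr1B, 21 bp in Polr1E, 31 bp in Polr1H and 32 bp in Polr1C. Promoters with CACGTG between the start and 50 bp downstream numbered 199 of 13945 over all genes (1.43%), and 137 of the 3613 bound genes had one (3.79%). Of those 199 genes, 137 were bound (68.8%), with a median score of 249.7.

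No other gene among the 33 had the E-box there. In the window from 250 bp before to 50 bp after the start, 6 of the 33 held CACGTG (18.2%), against 4.26% of all genes. The sixth was Polr3A, the largest subunit of polymerase III, whose E-box lay 47 bp upstream of the start and whose promoter was not bound. The site is shown for comparison, in the same format, and its E-box is followed by G.

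Polr3A (chrX:15762897-15762926, plus strand): tgttccgccacgCACGTGggtcacactgcc

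Within 500 bp of the start 12 of the 33 genes held an E-box (36.4%), against 12.9% of all genes. Beyond those named, they included Polr2G with a site 97 bp downstream, Polr2L with one 343 bp and Polr2C with one 426 bp downstream, Polr3K with sites 129 and 286 bp downstream, and Polr3G with one 449 bp upstream. Of these 5 genes only Polr2C was bound. Polr1F, the subunit of polymerase I alone without an E-box, was bound all the same, and TAF1B and Tif-IA had none either.

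The E-boxes of polymerase I genes were not under every summit, and 2 lay outside the called peak. The Polr1B site, at 404302-404331, lies beside its peak at 404167-404293. The Polr1H site, at 21777799-21777828, lies beside its peak at 21777851-21777969. Those of Polr1A, Polr1C and Polr1E lie inside the peak. The distance from the summit to the nearest base of the E-box was 13 bp at Polr1A, 21 bp at Polr1C, 32 bp at Polr1E, 48 bp at Polr1H and 81 bp at Polr1B. IDR summits at Polr1B, Polr1E and Polr1H lay upstream of the start and their E-boxes downstream of it. At Polr1E replicate 3 placed the summit 11 bp downstream of the start. Replicate summits were a median of 39.0 bp apart at the 21 bound genes, so offsets this short are uncertain. At Polr1A the summit was 47 bp and at Polr1C 11 bp downstream of the start.

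**Figure D1:**
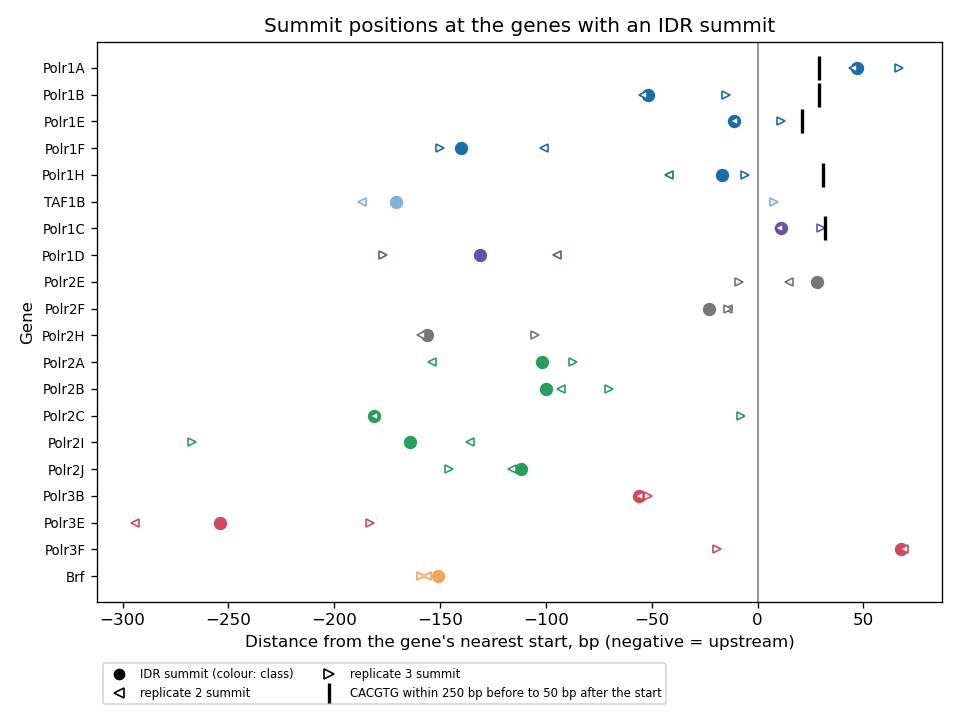
Summit position at 20 of the 21 bound genes, in bp from the nearest annotated start of that gene, with the best peak of each replicate as open triangles and CACGTG as a black bar. Bars are drawn only for CACGTG from 250 bp before to 50 bp after the start, so the E-box 426 bp downstream at Polr2C has none. The 5 bars lie between 21 and 32 bp downstream of the start, all in polymerase I genes or Polr1C.

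The 5 polymerase I subunits had scores from 225.4 to 322.5. The score is the value the authors' peak lists carry as enrichment, read by the column order of the format, and it is on 1 scale for the pooled list and the IDR list. The largest catalytic subunit Polr1A had 322.5 and the second largest, Polr1B, 225.4. Polr1E, part of a peripheral module that in yeast acts in initiation and elongation, had 310.4, the stalk subunit Polr1F 264.9, and Polr1H, which in yeast takes part in cleavage of nascent RNA, 270.8. The peaks were on 2L at 404167-404293 for Polr1B and 6907876-6908039 for Polr1F, and on 3R at 18301521-18301956 for Polr1E and 21777851-21777969 for Polr1H. Each of the 5 lay above 155.4, the median over all bound genes.

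In the replicate lists, Polr1E ranked 245 in replicate 2 and 1234 in replicate 3, Polr1A 268 and 924, Polr1F 565 and 900, Polr1H 631 and 899, and Polr1B 764 and 1752. All 5 were within the first 4712 peaks of both lists, the length of the IDR list, and all 5 ranked higher in replicate 2. Of the 21 bound genes among the 33, 15 ranked higher in replicate 2, and over all bound genes with a peak in both lists 54.0% did. The peaks of Polr1B, Polr1E and Polr1H had no other protein-coding start within 500 bp of the summit. That of Polr1A lay 109 bp from a start of Blos1, and the summit assigned to Polr1F was nearer to a start of Rat1, at 99 bp, than to its own at 140 bp.

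The initiation factors of polymerase I had weaker peaks than the 5 subunits of polymerase I alone. TAF1B, a subunit of the promoter selectivity factor in mammals, had 120.9 and ranked 2424 and 2873 in replicates 2 and 3. Its summit lay 171 bp upstream of the start, between TAF1B and Invadolysin. The replicates placed it differently, 187 bp upstream in replicate 2 and 8 bp downstream in replicate 3. The replicate 3 summit, 179 bp from the IDR summit, lies outside the sequence window printed below for TAF1B. Tif-IA, which recruits polymerase I to its promoter and is regulated by growth signals, was not bound. Its best summit in the pooled list ranked 6580 of 30000, with a score of 68.6, and lay 249 bp downstream of the start in a coding exon. No IDR summit was nearer to a start of Tif-IA than 119773 bp, the farthest of all 33 genes.

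The shared subunits ranged from among the strongest to unbound. Polr1C and Polr1D form the platform on which polymerases I and III assemble, and had scores of 113.8 and 166.5. Polr1C ranked 2583 in replicate 2 and 5465 in replicate 3, outside the first 4712, while Polr1D ranked 1686 and 1541. The Polr1D summit lay 131 bp upstream of an internal start, in an intron, so with the canonical start alone Polr1D was not bound. Both peaks were shared: a start of Scox lay 80 bp from the Polr1C summit, and a start of brat 202 bp from the Polr1D summit.

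Among subunits of all 3 enzymes, Polr2F had the strongest peak, with 404.1 and ranks of 206 and 314. Its summit lay 23 bp upstream of the start with no other protein-coding start within 500 bp. Polr2H followed with 347.5 and ranks of 674 and 166, but its summit lay 30 bp from a start of CG11247 and 156 bp from its own. Polr2E had 97.4, with ranks of 3055 and 8290, so replicate 3 alone did not place it within the first 4712. Polr2K and Polr2L were not bound, and their best pooled summits ranked 6187 and 10578. Polr2K had no peak at its start in replicate 3.

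**Figure D2:**
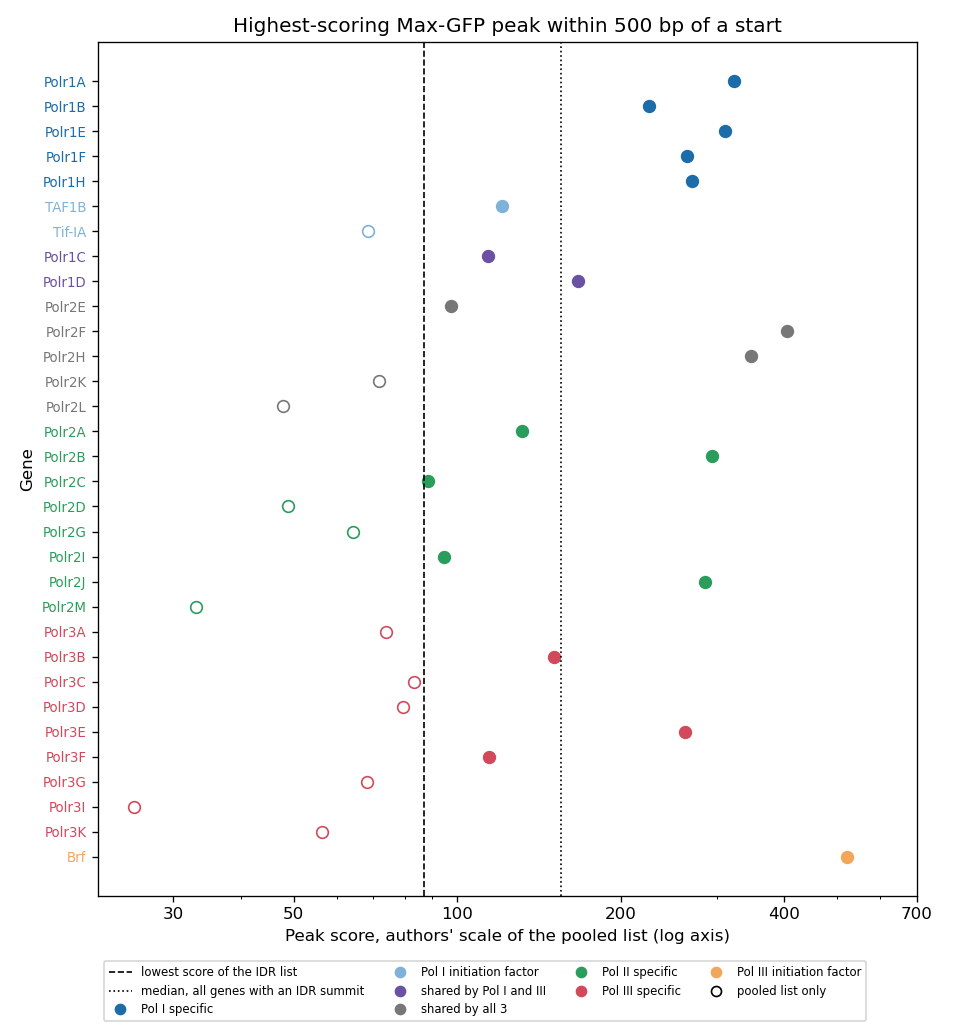
Score of the highest-scoring peak within 500 bp of a start for 32 of the 33 genes, on a log axis in the authors' units, coloured by class; filled points are in the IDR list and open points in the pooled list alone. The 5 blue points of polymerase I lie between 225.4 and 322.5, while the polymerase II genes run from 33.1 to 293.9 and the polymerase III subunits shown from 25.4 to 262.8.

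Polymerase II genes were bound in 5 of 8 cases, and their bound peaks were weaker, with a median score of 131.6. Polr2A, the largest subunit, whose C-terminal repeats coordinate transcription with RNA processing, had 131.6 and ranks of 2297 and 4420. Polr2B, the second largest, had 293.9 and ranks of 384 and 1126. The partners Polr2C and Polr2J, which form the platform corresponding to Polr1C and Polr1D, differed: Polr2J had 285.9 and ranks of 639 and 630, and Polr2C 88.5 and ranks of 4747 and 5404, outside the first 4712 of both lists.

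Polr2I, which acts in fidelity of transcription, had 94.5, with ranks of 6523 and 2304. The stalk subunits Polr2D and Polr2G were not bound, and their best pooled summits ranked 10277 and 7165. Polr2M, known in mammals as an inhibitor that associates with polymerase II, was not bound either, with a pooled rank of 17430. All 5 bound peaks had a start of another gene within 500 bp: CG11699 at Polr2A, 140up at Polr2B, PolG2 and GatC at Polr2C, su(Hw) at Polr2I and CG15141 at Polr2J. Only at Polr2C was the other start the nearer, at 51 bp against 181 bp. None of these 8 genes held CACGTG in the window from 250 bp before to 50 bp after the start.

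Polymerase III subunits were bound in 4 of 10 cases, of which 3 are described here. Polr3E, of the module that acts in termination, had 262.8 and ranks of 452 and 1149, at a summit 254 bp upstream, where a start of CG10584 was 211 bp away, and 119.0 at another 54 bp upstream. Polr3B, the second largest subunit, had 150.4 with the same summit to within 4 bp in both replicates, ranks of 2356 and 2152, and no other gene at the peak. Polr3F, which takes part in opening the promoter, had 114.2 and ranks of 3321 and 3383. Its summit lay 68 bp from its own start and 231 bp from a start of PyK.

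A further 6 subunits of polymerase III were not bound. Of these, 5 had a pooled summit between ranks 5002 and 8514, where the IDR list has 4712 peaks. Among all unbound genes 19.1% had a pooled summit to rank 10000. Polr3C ranked 5002 with a score of 83.2, Polr3D 5378, the largest subunit Polr3A 5938, Polr3G 6638 and Polr3K 8514, while the stalk subunit Polr3I ranked 24850. Known partners thus fell on different sides of the threshold: Polr3E was bound and Polr3D was not, and of Polr3C, Polr3F and Polr3G only Polr3F was. Polr3C ranked 3342 in replicate 2 and 14162 in replicate 3, and Polr3D 7990 and 3975, so each would be bound from 1 replicate alone. The nearest gene inside the threshold was Polr2C, at pooled rank 4608, and the nearest outside it was Polr3C.

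Brf, a subunit of the initiation factor TFIIIB of polymerase III, had a score of 520.7. It ranked 138 in replicate 2 and 114 in replicate 3, with summits 156 and 159 bp upstream of the start, so the replicates placed it nearly alike. The peak, on 3R from 17391307 to 17391649, lies between Brf and sds22, whose start was the nearer at 106 bp against 151 bp. A second IDR summit, with 154.8, lay 360 bp upstream of Brf.

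Strong summits outside polymerase I, at Brf, Polr2F and Polr2B, follow because they lack CACGTG within 50 bp, and that of TAF1B follows because it holds another motif. Polr2H is passed over since its summit lies in an exon. Each sequence is read 5′ to 3′ towards the named gene on dm6, covers up to 50 bp to each side of the summit and stops at the first annotated exon. Capitals mark the core promoter motif Ohler 6 (GGTATTTT), here on the other strand.

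Brf (chr3R:17391438-17391501, minus strand): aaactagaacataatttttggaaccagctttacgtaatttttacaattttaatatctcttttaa
Polr2F (chr3R:5371745-5371794, plus strand): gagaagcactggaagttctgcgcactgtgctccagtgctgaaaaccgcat
Polr2B (chr3R:14125641-14125741, plus strand): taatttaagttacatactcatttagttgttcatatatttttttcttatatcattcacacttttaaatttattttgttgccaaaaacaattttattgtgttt
TAF1B (chr3R:10144305-10144405, minus strand): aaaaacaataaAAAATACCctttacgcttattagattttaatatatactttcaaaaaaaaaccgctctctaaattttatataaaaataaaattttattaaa

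The windows of Brf, Polr2B and TAF1B are rich in A and T, with 21.9%, 18.8% and 15.8% G or C in the bases shown, and that of Polr2F is not, with 54.0%. Over the 21 bound genes the median GC content within 50 bp of the summit was 28.7%, against 34.7% over all 2855 IDR summits at promoters. For the motif counts the whole motif had to lie in the window around the summit, so the E-box of Polr1H, whose nearest base is 48 bp away, is not in the narrower one. CACGTG lay wholly within 50 bp of 3 of the 21 summits, at Polr1A, Polr1C and Polr1E (14.3%, against 4.45% over all promoter summits), and within 100 bp of 6 (28.6%, against 7.67%).

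Ohler 6 lay within 50 bp of 3 summits, TAF1B and Polr2E among them (14.3% against 2.00%), and the DNA replication-related element TATCGATA of 1, at Polr3B (4.76% against 5.57%). Ohler 7 (CATCNCTA) was found at 1, Polr1D, and Ohler 1 (GGTCACAC) at none, against 3.47% of all promoter summits for each. TATAAA lay within 50 bp of 9 (42.9% against 22.2%) and within 100 bp of 10 (47.6% against 35.8%), while in the promoter window 14 of the 33 genes held it (42.4%), against 45.3% of all genes. Within 50 bp of the summit there was CACGCG at 1 and CATGTG at none (2.73% and 4.03% over all). In the promoter window CACGCG was found in 2 of the 33 genes (6.06%), against 6.47% of all genes. These were Polr2F and Polr2H, each with its first base 31 bp downstream of the start. Both strands were searched. In the promoter window Ohler 1 was found in 9 of 33 genes (27.3%), against 7.54% of all genes. Of those 9 genes 3 were bound (33.3%), Polr2I and Polr3E among them, against 480 of the 1051 genes with Ohler 1 in all (45.7%). The 6 that were not bound were Polr2D, Polr2G, Polr2L, Polr3A, Polr3I and Polr3K.

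Many of these genes stand head to head with a neighbour. A start on the opposite strand lay within 1000 bp upstream for 20 of the 33 (60.6%), against 35.2% of all genes, with a median gap of 237 bp. Of these 20, 14 were bound (70.0%), and of the other 13, 7 were (53.8%). Over all genes the shares were 48.0% of those with such a neighbour and 13.9% of those without. The summit had a start of another protein-coding gene within 500 bp at 15 of the 21 bound genes, and it cannot be told which gene such a peak serves.

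With each summit given only to the gene with the nearest start, 17 of the 33 genes were bound, against 19.0% of all genes. The genes lost were Brf, Polr1F, Polr2C and Polr2H, which left 4 of 5 for polymerase I alone, 4 of 8 for polymerase II and 4 of 10 for polymerase III. The median offset of the summit from the start was -102 bp, and 17 of the 21 summits were upstream, against -116 bp and 84.2% over all bound genes.

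Each replicate list alone gave a count close to that of the IDR list. From the first 4712 peaks of replicate 2 alone 20 of the 33 genes were bound, against 26.0% of all genes, and from replicate 3 alone 19, against 25.0%. Of the 21 bound genes 17 were within the first 4712 of both lists (all bound genes, 79.2%). The other 4 were Polr1C and Polr2E, missed in replicate 3, Polr2I, missed in replicate 2, and Polr2C, missed in both. The best summits of the replicates were a median of 39.0 bp apart at the 21 genes, from 0 to 195 bp.

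**Figure D3:**
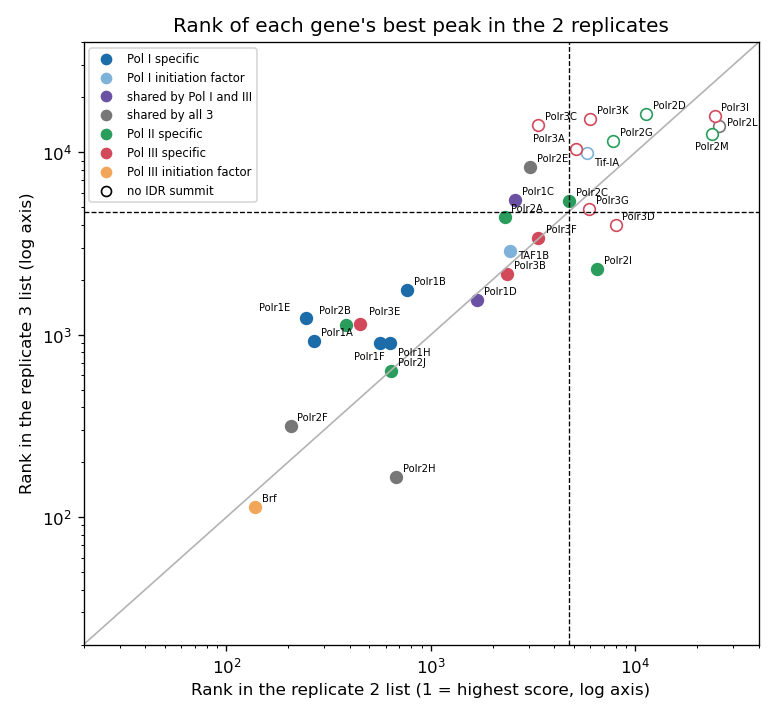
Rank of the best peak within 500 bp of a start in the list of replicate 2 (x) and replicate 3 (y), both on log axes, for 31 of the 32 genes with a peak in both; dashed lines mark rank 4712 and open points have no IDR summit. Brf, at 138 and 114, and Polr2F, at 206 and 314, rank high in both lists, and the 5 polymerase I genes all lie above the diagonal, that is, higher in replicate 2.

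Every gene that missed the IDR list had an entry in the pooled list, down to ranks 17430 at Polr2M and 24850 at Polr3I. All 12 unbound genes had a pooled summit within 500 bp of a start, with a median rank of 6902 and a median score of 66.2. Among all 10332 unbound genes 42.2% had one, with a median rank of 10868. To rank 10000 of the pooled list 29 of the 33 genes were reached, against 40.0% of all genes, and over the whole pooled list all 33 were, against 57.2%. By enzyme, the genes reached to rank 10000 were 5 of 5 for polymerase I, 6 of 8 for polymerase II and 9 of 10 for polymerase III. The pooled list was deposited as peaks and background for the IDR step, so a summit in its lower ranks is not a call.

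**Figure D4:**
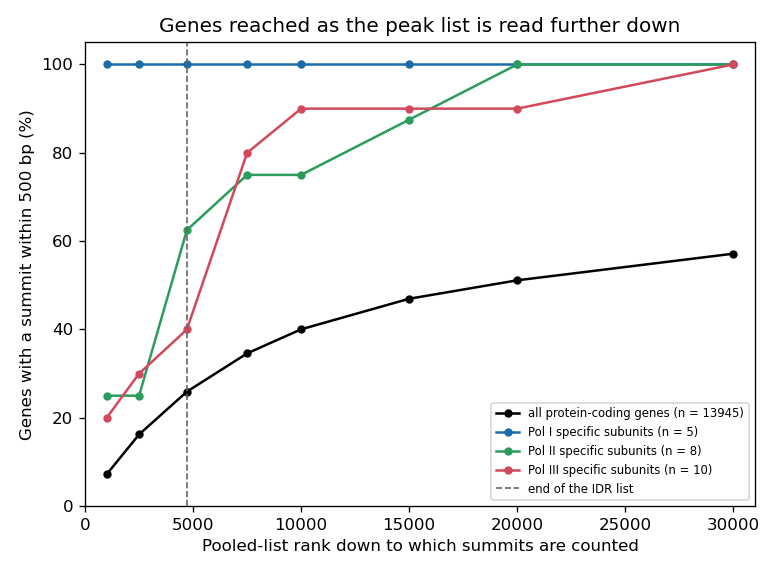
Percent of genes with a pooled summit within 500 bp of a start (y) down to a given rank of the pooled list (x), for the subunits of each enzyme alone and for all protein-coding genes; the dashed line is the end of the IDR list. All 5 polymerase I genes are reached by rank 1000, while polymerase III goes from 40.0% at the dashed line to 90.0% at rank 10000.

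Genes that work with the polymerases were taken from lists chosen by function. Of 63 such genes found in the annotation 39 were bound (61.9%), against 25.9% of all protein-coding genes. Their median score of 157.7 was close to the 155.4 of all bound genes. Accessory genes of polymerases I and III had 7 of 10 bound, led by Bdp1, another TFIIIB subunit, with 733.0, the nucleolar protein Nopp140 with 492.4 and the topoisomerase Top1 with 196.4. General initiation factors of polymerase II had 9 of 16, led by Ssl1, a TFIIH subunit, with 1307.4, TfIIB with 260.5 and TfIIA-L with 181.4. Elongation and termination genes had 15 of 27, led by the pausing factors Nelf-E with 339.4 and Nelf-A with 240.8 and the kinase Cdk12 with 234.9. The unbound gene elB is counted in the 27 and in the 63, though a role in elongation was not established for it.

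Genes for assembly of the polymerases had 5 of 6 bound, among them the paired helicases rept with 590.0 and pont with 374.0, and Pih1D1 with 362.1. That list held 12 names, from which only these 6 genes were found, so it covers the assembly factors in part. The mitochondrial polymerase PolrMT had 257.7, and its group had 3 of 4, with TFAM at 125.3 and mtTFB1 at 107.0. Many of these peaks were shared too: Bdp1 with CG6565, Ssl1 with Chro, Nelf-E with RpL14, rept with mRpL21 and pont with Sirt6. With the nearest gene only, 22 of the 63 were bound (34.9%), against 19.0% of all genes.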

How the data were processed

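Peak lists in narrowPeak format, deposited by the authors on assembly dm6, were used: 1 per replicate, the pooled list and the IDR-thresholded list. Per the text listing beside the samples, the replicate and pooled lists derive from the replicates' alignments and 1 further file, from which the control-normalized tracks also derive and whose content the listing does not describe; none of these was analysed here. The aligner is not given in the sources used here, nor is the peak caller. Chromatin had been sonicated to 200 to 800 bp, per the labels. The lists deposited by the authors hold a peak score, −log10 of a q-value (not used for any result) and the summit offset. As no reads are counted in them, the sequencing depth is unknown. The replicate and pooled lists were each of 30000 peaks, so they were capped. All 4712 IDR peaks were in the pooled list, and 4712 pooled peaks scored at or above the lowest IDR score of 87.0, so the IDR peaks are the highest-scoring pooled ones. The columns were read by the order of the format. The lists on dm3 were not used.

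Starts were all transcript starts of Ensembl release 115, and sequence was the Release 6 genome from RefSeq, whose arms no dm6 peak overran. Summits, ranks and motifs were computed in Python 3.11.15 with NumPy 2.4.6; the code was checked on planted peaks and motifs. Ranks are by score within a list. No test was run: there is 1 group, and genes are not replicates. The genes, lists and motifs were chosen with earlier results of these data known. The wider E-box window, the base after the E-box, and the cuts of the pooled list at rank 10000 and 30000 were added after seeing the data. Every one of the 33 genes but 1 is named; that gene enters the counts and medians and is otherwise not reported here. Named too are genes sharing a peak with a named bound gene of the 33, the top 3 of each companion list, and elB. Companion names were matched by Ensembl name or RefSeq synonym, 63 genes from 75 names.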

Additional observations from a re-analysis of the deposited data

How the results depend on the processing

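The count of bound genes stayed between 14 and 21 of 33 under the 8 alternatives that kept to the IDR list or to a replicate list of its length, and polymerase I kept 5 of 5 under all but nearest-gene assignment, which gave 4. Among the 2356 highest-scoring IDR peaks 2 of 8 polymerase II genes and 3 of 10 polymerase III subunits were bound. So were 1 subunit shared by polymerases I and III and 1 initiation factor, against 15.5% of all genes. The median score of the bound genes there was 289.9. With the canonical start only, 1 shared subunit of polymerases I and III was bound, 23.4% of all genes were, and the median score was 263.8. With the nearest gene only, 1 initiation factor and 22 companion genes were bound, 19.0% of all genes were, and the median score was 166.5. Windows of 250 and 1000 bp gave 21.9% and 28.8% of all genes, with a median score of 225.4 for the narrower, and overlap of the peak interval by 1 bp gave 27.4%. Leaving out replicate 2 or replicate 3 gave 1 to 2 subunits shared by polymerases I and III (1 without replicate 2, which left out Polr1C), 3 to 4 polymerase II genes (3 without replicate 3, which left out Polr2C and Polr2I) and 25.0 to 26.0% of all genes. Either way 5 of 10 polymerase III subunits were bound.

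To rank 10000 of the pooled list 9 polymerase III genes and 40.0% of all genes were reached, with a median score of 131.6. Over the whole pooled list all 33 genes (8 of polymerase II, 10 of polymerase III, 5 shared by all 3), 62 companion genes and 57.2% of all genes were, with a median score of 114.2. Beyond the settings' own construction the causes were not tested. With 100 bp in place of 50 bp to each side of the summit, CACGTG was counted at 6 rather than 3 summits. No paired analysis was possible because the series has 1 group.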
